A study of Mus musculus with 24 samples.

Results

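The genes described here encode the proteins of the cytosolic ribosome, apart from Rps4l, which is annotated as a transcribed processed pseudogene. They were chosen by symbol in the count table, as the numbered Rpl and Rps genes with Rplp0, Rplp1, Rplp2, Rpsa and Rpl13a. The Rps6k kinases and symbols with -ps were left out. A mean of at least 1 CPM (counts relative to the library's unscaled total) over 24 libraries was required. The CPM values given below use the library's scaled total. The symbols picked 81 genes and the level kept 80 of the 24046 in the table, dropping Rpl10l at its low mean. By symbol, 45 of the 80 members were assigned to the large subunit, 32, Rps4l included, to the small subunit and 3 to the stalk. No measured difference between groups was used to choose them.

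The libraries are polyadenylated RNA of mouse leukaemia driven by the fusion oncogene MLL-AF9, taken from the marrow of secondary transplant recipients that had become moribund. There are 4 sets, each with 3 control and 3 floxed libraries. In the VavCre Arid1b set, controls were Arid1b +/+ VavCre+ and floxed cells Arid1b fl/fl VavCre+. In the VavCre Arid2 set, they were Arid2 +/+ VavCre+ and Arid2 fl/fl VavCre+. Both other sets carry MxCre in controls and floxed cells alike, and are named here by their titles, A2 and A1b, because titles and cell type descriptions disagree on the gene: the set titled A2 is described as Arid1b (+/+ or fl/fl) and the set titled A1b as Arid2 (+/+ or fl/fl). All MxCre recipients, those of control cells included, received pIpC, which induces this Cre, 3 times at a dose of 12.5 µg for each gram of mouse, beginning on day 21 of the transplant. VavCre is active throughout blood cells. Recipient age is not given in the labels, and the labels do not say whether libraries of a group came from separate primary leukaemias, so p-values measure the spread between these libraries only. Arid1b and Arid2 encode subunits of different forms of the SWI/SNF chromatin remodeller, and the sets ask how MLL-AF9 leukaemia cells differ when the alleles of each are floxed.

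A cytosolic ribosome is built from ribosomal RNAs and a set of proteins needed in nearly equal numbers, assembled mostly in the nucleolus. The messenger RNAs of these proteins are short, abundant and begin with a run of pyrimidines, the terminal oligopyrimidine tract, through which mTOR and the protein Larp1 set how much they are translated. When assembly fails, free Rpl5 and Rpl11 bind Mdm2 and p53 is stabilised, and loss of a copy of genes such as Rps19 or Rps14 causes anaemia in people.

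Sequence around the annotated starts of the members was searched for pyrimidine runs. RefSeq start sites on GRCm38.p6 were matched by symbol for 59 of the 80 members. The stretches are shown on the gene's strand, 5′ to 3′, with the longest run of C and T between 50 bases before and 50 bases after the start in capitals; the first 4 are members whose run lies at the annotated start, and the next 4 are members that depart from it or are tissue-restricted copies.
Rpl13a (chr7:45128722-45128751, minus strand): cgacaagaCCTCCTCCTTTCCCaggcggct
Rps6 (chr4:86857347-86857376, minus strand): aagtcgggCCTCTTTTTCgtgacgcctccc
Rps27 (chr3:90213629-90213658, minus strand): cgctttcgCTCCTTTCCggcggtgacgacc
Rplp2 (chr7:141447638-141447667, plus strand): cgtcagcgTCTTCCTTTCgccgccggacgc
Rps28 (chr17:33824562-33824591, minus strand): cccgaggaTTCCTgggtaccgcgtgcggtc
Rps27l (chr9:66946056-66946085, plus strand): cgcctccaCTCCTCTCCactcctccccgcc
Rpl39l (chr16:10170194-10170223, plus strand): acccactgCCTCTCCCTagctcccaggcct
Rpl3l (chr17:24727846-24727875, plus strand): tggtggggaggCCCCTTCCTaacctgcagg

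In Rpl13a the 14-base run begins at base 3 of the annotated transcript, and in Rps6 its 10 bases begin 1 base before the start. The longest run near the Rps28 start has only 5 bases. In other members the longest run lay away from the start, beginning 50 bases before it in Rpl26 and at base 41 in Rpl10. The first 4 stretches were chosen for a run at the start and do not stand for all members. A run within 50 bases of a start need not be a terminal oligopyrimidine tract. A run of at least 8 C or T lay within 50 bases of a start in 51 of 59 matched members (86.4%) and in 6402 of 16744 other genes of the table (38.2%). The reverse composition, a run of at least 8 A or G, was present in 23.7% of members and 39.9% of other genes. Among genes with 1 annotated start, the pyrimidine run was present in 83.7% of 49 members and 34.3% of the others. In the whole window from 250 bases before to 50 after the start, read on both strands, CCGGAA was present in 55.9% of members and 20.8% of other genes, and AAGATGGC in 8.47% and 3.6%. These are letter matches, not measured sites; CCGGAA and AAGATGGC can overlap at their AA ends, and the reverse complement of CCGGAA begins with pyrimidines, so a match can overlap a run.

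The members were abundant transcripts. Library totals ran from 12069153 to 38315410 counts, and members took between 3.12% and 7.26% of a library. Leaving out Rps4l, Rpl39l and Rpl3l, 77 members had means above 10 CPM, with a median of 429.5 CPM and quartiles of 305.5 and 599.7. Rpl4, a large subunit protein at the exit tunnel, had the highest mean at 2269 CPM, and Rps28, a small subunit protein of the messenger channel, the lowest of the 77 at 34.3 CPM. Rpl4, and below Rps3 and Rpl41, were named after their values were seen.

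Levels between genes were compared per kb of transcript. Rpl13a, a large subunit protein that also takes part in interferon-induced translational silencing, led at 2192 CPM per kb. Rplp1, a stalk protein that helps recruit elongation factors, at 1591 CPM per kb could not be told from Rps3 at 1585, being higher in 13 of 24 libraries. Per kb of coding sequence the order changed, because the coding sequence of Rpl41 is very short: Rpl41 led at 6216 CPM per kb coding, above Rpl13a at 2762 in every library.

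The level also varied with the amount of sequence shared with other genes. Ribosomal protein genes have many processed pseudogenes, and all 50-base stretches of the coding sequence occurred in at least 1 other annotated gene for 27 of 76 members examined (Rps4l, Rps27l, Rpl3l and Rpl39l were left out). These 27 had a median of 778 CPM per kb coding. The 39 members with 50% to below 100% of stretches shared had a median of 955, and the 10 members with less than 50% shared had a median of 1836. Across the 76 genes, which are not independent replicates, Spearman's rho between the shared share and the level per kb coding was -0.58. Rpl5, with every stretch shared, had 272 CPM per kb coding, whereas Rps3, with 8.05% shared, had 2062.

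**Figure D1:**
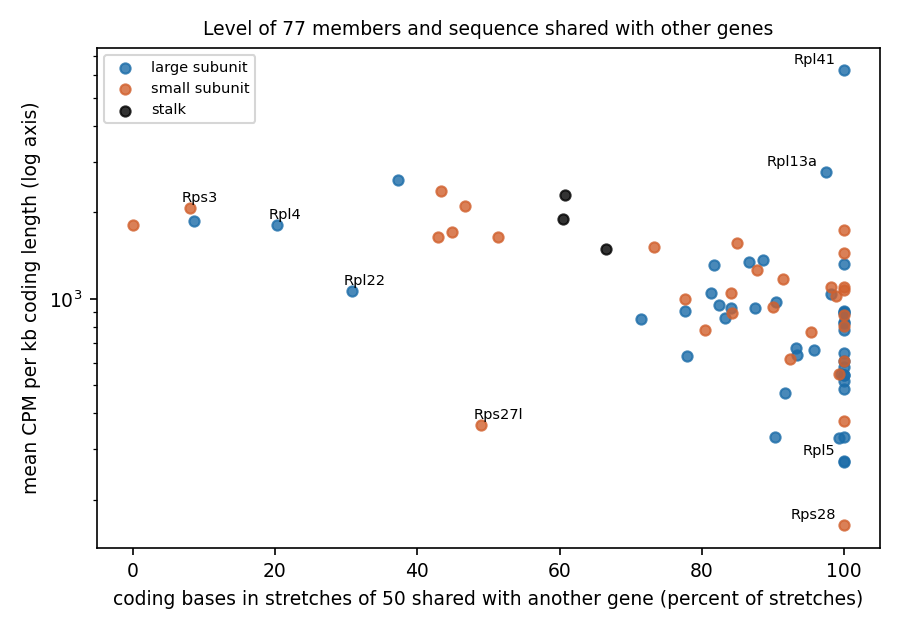
Mean level over 24 libraries (CPM per kb coding length, log axis) against the percent of 50-base coding stretches that occur in another annotated gene, 1 point per member for 77 members above 10 CPM, coloured by subunit. Members with little shared sequence, such as Rps3 and Rpl4, sit high, and those with every stretch shared run from Rps28 at 163 to Rpl41 at 6216.

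For 4 members a second symbol carried nearly the same counts. Rpl26 and Gm15772 had identical counts in 22 of 24 libraries, with a ratio between 0.9998 and 1.0 throughout. Rpl30 and Gm12191 had ratios of 0.980 to 0.999, Rpl34 and Rpl34-ps1 0.983 to 0.995, and Rps27 and Rps27rt 0.994 to 0.999. The 2 alpha-globin entries of the table, Hba-a1 and Hba-a2, were likewise identical in 24 of 24 libraries, as were the beta-globin entries Hbb-b1 and Hbb-bs. How the authors' counting treated reads that match several genes is not given in the sources used here, so the level of any member with near-identical copies is uncertain, and its change between libraries may be that of the member and its copies together.

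The members moved together from library to library. Over 24 libraries, the median Pearson correlation between 2 members' log2 CPM was 0.85 among 79 tested members, and it was 0.74 without floxed 2 of the set titled A1b. The SD of a member around the member median of each library was below 0.3 log2 units for 75 of 79 and had a median of 0.13. The 4 that followed the others least were Rps4l (SD 2.64), Rpl3l (0.83), Rps29 (0.48) and Rps28 (0.30). The non-members most like the member median were Rps3a1, a ribosomal protein gene whose symbol falls outside the rule (r = 0.97 over 24 libraries), Gm15772 (0.94), Ndufa7, a subunit of mitochondrial complex I (0.94), Rpl34-ps1 (0.94), and Eef1b2, a translation elongation factor (0.93). Then came Fam173a (0.92), Naca, which binds nascent chains at the ribosome (0.90), and Gm12191 (0.90). Gm15772, Rpl34-ps1 and Gm12191 are the second symbols of members described above.

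The members' level stood apart in 2 libraries. The share of counts in members was 5.67% in floxed 1 of the VavCre Arid1b set and 7.26% in floxed 2 of the set titled A1b, against 3.12% to 4.83% in the other 22 libraries. In the VavCre Arid1b set the controls had 4.11%, 4.33% and 3.58%, and the floxed libraries 5.67%, 3.85% and 3.88%. The other 2 floxed libraries of that set lay inside the range of its controls. In the VavCre Arid2 set the controls had 4.37%, 3.84% and 3.25%, and the floxed libraries 4.67%, 4.35% and 3.60%, so these groups overlapped.

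In the set titled A2 the shares were 3.81%, 4.83% and 4.15% in controls and 4.19%, 4.08% and 3.12% in floxed libraries, again overlapping. In the set titled A1b the controls had 3.85%, 3.32% and 3.70%, and the floxed libraries 4.08%, 7.26% and 4.60%. That was the only set of the 4 in which the shares did not overlap, all 3 floxed libraries being above all 3 controls. The mean share was 3.62% ± 0.27 in controls and 5.31% ± 1.70 in floxed libraries (SD, n = 3 each), and with 3 libraries against 3 the smallest exact two-sided permutation p would be 0.1. In bulk RNA, fewer cells of a kind and less RNA per cell cannot be told apart.

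**Figure D2:**
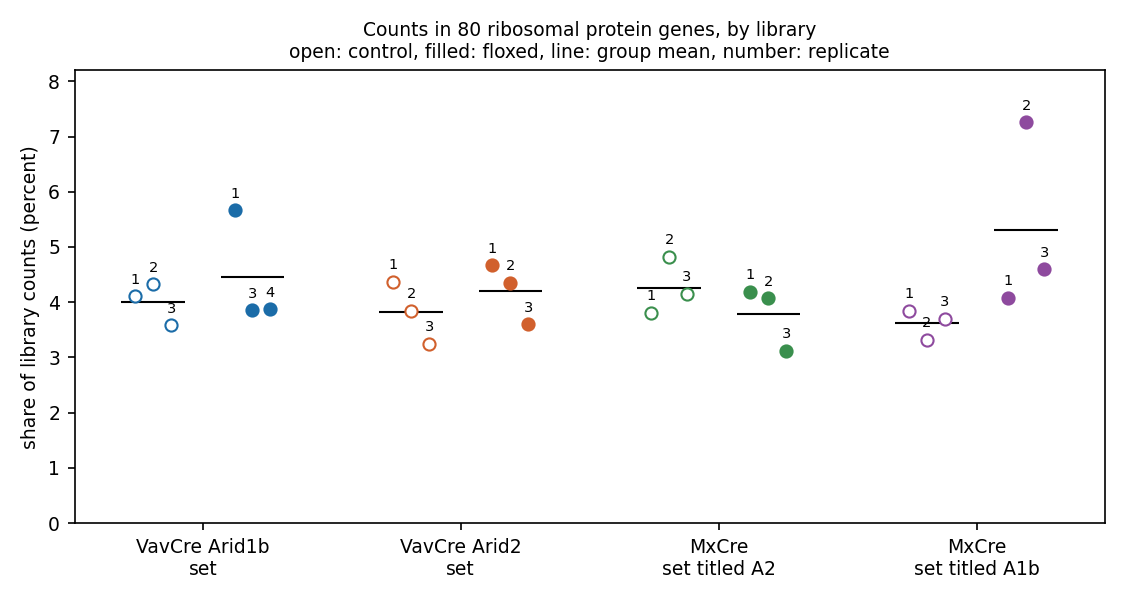
Percent of each library's counts that fall in the 80 ribosomal protein genes, by set, with open points for controls, filled points for floxed libraries, replicate numbers beside the points and lines at group means. Floxed 2 of the set titled A1b, at 7.26%, and floxed 1 of the VavCre Arid1b set, at 5.67%, stand above the other 22 libraries.

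Gene length moved with these levels. The tested members' transcripts had a median of 774 bases and the other tested genes' 2562.5, and 61 of 79 members were shorter than 1000 bases. In floxed 2 of the set titled A1b, the level of the other genes relative to their own mean over libraries fell with length (Spearman -0.45), and in floxed 1 of the VavCre Arid1b set it did so too (-0.20). The median of the members' log2 CPM, each taken relative to its mean over 24 libraries, was 0.99 and 0.47 in those 2 libraries. After a smooth trend on length, fitted on genes that are not members, was taken out, the medians were 0.30 and 0.28.

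Length and level went the same way among the members themselves. In floxed 2 of the set titled A1b, the members' deviation fell with their own coding length (Spearman -0.56 over 78 members with a coding length). Over 24 libraries, the member median and the length trend of other genes had a Pearson correlation of -0.78 and a Spearman correlation of -0.55. Without the 2 libraries of most negative trend, Pearson's r over 22 was -0.41. Within sets of 6 libraries, r was -0.76, -0.44, -0.74 and -0.96 for VavCre Arid1b, VavCre Arid2, titled A2 and titled A1b. The libraries share polyadenylation selection and scaling, and whether RNA integrity differed was not tested.

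**Figure D3:**
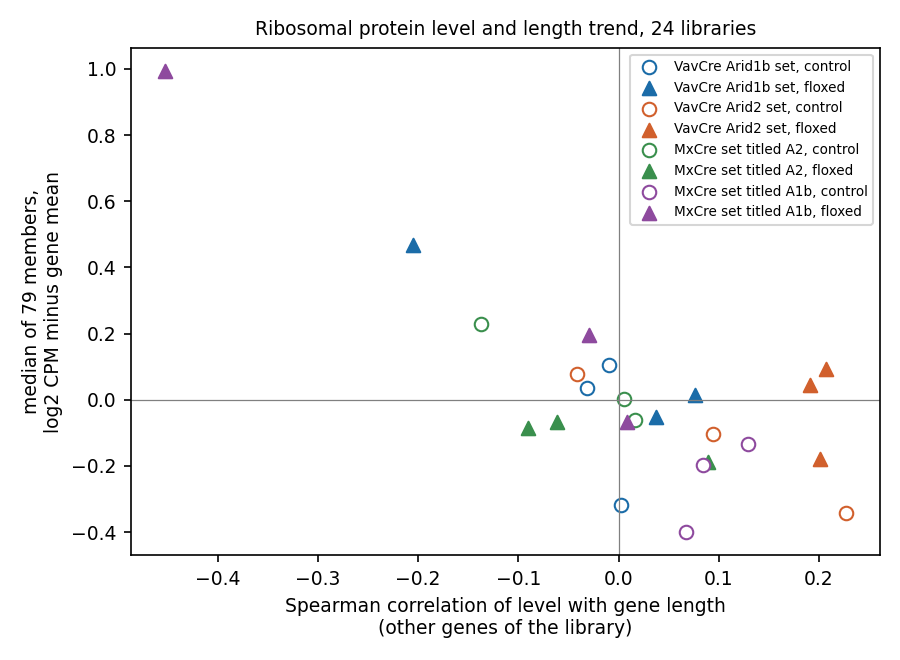
Median deviation of 79 members (log2 CPM minus each gene's mean over 24 libraries) against the Spearman correlation of the other genes' deviation with transcript length, 1 point per library, circles for controls and triangles for floxed libraries. Floxed 2 of the set titled A1b lies at -0.45 and 0.99 and floxed 1 of the VavCre Arid1b set at -0.20 and 0.47, apart from the other 22.

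Markers of other cells were read beside these levels. All 9 myeloid and leukaemia markers examined were above 0 in every library, among them Hoxa9, a target of the fusion, at 20.1 to 444 CPM. In floxed 2 of the set titled A1b, 6 markers of maturing neutrophils summed to 19720 CPM, against 147 to 10470 in the other libraries. The 7 erythroid markers summed to 575 CPM there. All erythroid sums count the identical entries Hba-a1 and Hba-a2, and Hbb-b1 and Hbb-bs, as separate markers. The other high erythroid sum was 833 CPM, in floxed 3 of the set titled A2, the library with the lowest member share; elsewhere the sum was at most 72.4. That library also had the 10470 CPM of neutrophil markers. Floxed 1 of the VavCre Arid1b set, with the second highest member share, had 1581 CPM of neutrophil and 7.56 of erythroid markers, within the range of the other libraries. In the VavCre Arid1b set, Y-linked genes summed to 266 to 353.5 CPM in every control and to at most 0.0601 in floxed libraries. In the set titled A2 they summed to 69.6 to 284.5 CPM in every floxed library and to at most 0.0585 in controls. The part of cell mixture in the members' levels was not tested, and Y status cannot be told apart from the floxed alleles within those 2 sets. A term for Y-positive libraries, fitted over all 24, gave the medians printed with those comparisons. It is estimated only from groups holding both kinds of library, in VavCre Arid2 and the set titled A1b, floxed 2 of the latter included. It therefore cannot separate Y status from the floxed alleles in the 2 sets named.

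The first comparison asked how the members differed between Arid1b fl/fl VavCre+ cells and their controls. Members were slightly higher on balance: 72 of 79 had a log2 fold change above 0, where 44.9% of all 14099 tested genes did, and their median was 0.19 against -0.06 over all genes. None was called at an adjusted p under 0.05 by edgeR's quasi-likelihood test (background 6.57%), and DESeq2 called 0 too (background 12.9%). At an unadjusted p under 0.05, 3 members were higher and 0 lower, or 3.8% where 24% of all genes passed. With a gene length offset in the model, 15 members were higher at that level, or 19%, beside 25.3% of all genes, and edgeR called 1, Rplp1 (background 8.34%). Floxed libraries were above all controls for 10 members, or 12.7%, which is below the 16.3% of all genes. The 9 leukaemia and myeloid markers had log2 fold changes from -1.935 to 2.407, and edgeR called 1 lower. DESeq2 called Csf1r and Kit, 1 higher and 1 lower, and the T cell marker Cd3g lower. The 3 T cell markers were all below 0 (median -2.45) and the 7 erythroid ones all above 0 (median 4.04). The part of these cells in the members' values was not tested.

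Rplp1 and Rps27 were among the members at that unadjusted level. Rplp1 was at 638, 644.5 and 391 CPM in controls and at 1117, 734 and 743 in floxed libraries. Every floxed library was above every control, and the log2 fold change was 0.63 ± 0.27 (SE, edgeR adjusted p = 0.157, and 0.0308 with the length offset). Rps27, a zinc-finger protein of the small subunit, was at 426, 507 and 267 CPM in controls and at 750, 642 and 496 in floxed libraries. Here floxed 4 fell below control 2, and the log2 fold change was 0.65 ± 0.30 (SE, edgeR adjusted p = 0.194).

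Members with the lowest values in this set had other patterns. Rps29, a small zinc-binding protein of the small subunit head, was at 190, 220 and 90.7 CPM in controls and 200, 150 and 99.5 in floxed libraries, with -0.16 ± 0.37 as log2 fold change (SE, edgeR adjusted p = 0.837). Rps7, another small subunit protein that binds Mdm2, was highest in control 3 at 636 CPM and lay between 364 and 516 in the other 5 libraries. The median over members was 0.02 without floxed 1, the library with a 5.67% share, 0.11 without control 3 and 0.30 without floxed 4. With the Y term it was 0.08, with 54 of 79 members above 0.

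The second comparison asked the same of Arid2 fl/fl VavCre+ cells. The member median was 0.10 and 66 of 79 members were above 0, where 50.5% of all genes were. Neither edgeR (background 1.31%) nor DESeq2 (background 7.79%) called a member, and 0 members reached an unadjusted p under 0.05, where 19.5% of all genes did. Floxed libraries were above all controls for 1 member and below them for 1, Rps27l, where 36.1% of all genes did not overlap in either direction. With the length trend taken out the members' median was 0.20, and 15 members, or 19%, were higher at an unadjusted p under 0.05, beside 20.9% of all genes. The median was 0.02 without control 3, 0.04 without floxed 1, 0.18 without floxed 3 and 0.21 without control 1.

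Most markers of maturing neutrophils were lower in the same floxed libraries. Their sum was 3783 to 8497 CPM in controls and 147 to 848 in floxed libraries. The 6 markers had a median log2 fold change of -3.07, with 1 above 0, at 0.31, and 4 lower at an unadjusted p under 0.05. edgeR called 0 of them, and DESeq2 called Ngp, Camp, S100a8 and S100a9 lower, and also Hoxa9 and Hoxa10 of the leukaemia markers. The part of these cells in the members' values was not tested.

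Rps27l is a close relative of Rps27 and a target of p53. It was at 119, 102 and 104.5 CPM in the Arid2 controls and at 79.9, 85.6 and 84.0 in the floxed libraries, so the lowest control was above the highest floxed library. The log2 fold change was -0.38 ± 0.19 (SE, edgeR adjusted p = 0.284). Its relative Rps27 had 303 ± 46.5 CPM in controls and 430 ± 71.0 in floxed libraries (SD, n = 3 each), with 0.51 ± 0.30 as log2 fold change (SE, edgeR adjusted p = 0.372), with overlap between groups. Another member among the highest was Rps12, a small subunit protein, at 0.36 ± 0.29 (log2 fold change ± SE), with an edgeR adjusted p of 0.517.

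The third comparison, in the MxCre set titled A2, had the members lower on balance. The median log2 fold change was -0.17 against 0.02 over all genes, and only 5 of 79 members were above 0, where 51.8% of all genes were. edgeR called 0 members (background 0.0284%) and DESeq2 0 (background 1.39%). At an unadjusted p under 0.05 there were 2 (2.53%), Rps29 lower and Rps4l higher, where 10.6% of all genes passed. Floxed libraries were below all controls for 29 members, or 36.7%, where 7.78% of all genes were. Without control 2, the highest control, the median was -0.09 with 13 members above 0, and with the Y term it was -0.03 with 26 above 0.

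Markers of other blood cells were higher in these floxed libraries. All 3 T cell and 2 of 3 B cell markers were higher at an unadjusted p under 0.05, and edgeR and DESeq2 called 0 of them. T cell markers summed to 1.71 to 4.27 CPM in controls and 4.52 to 23.01 in floxed libraries, and B cell markers to 1.25 to 5.15 and 5.83 to 20.1. All 7 erythroid markers were higher at that level (median log2 fold change 5.49, 0 called by edgeR or DESeq2). They include the globin pairs with identical counts, so they are fewer than 7 separate measurements. Their sum was high in floxed 3 only. It was 1.66 and 3.17 CPM in the other floxed libraries, beside 3.41 to 8.97 in controls. The part of these cells in the members' values was not tested.

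Rps29 was at 102.9, 141.5 and 92.1 CPM in controls and at 64.4, 68.7 and 62.9 in floxed libraries of this set. The groups did not overlap, and the log2 fold change was -0.78 ± 0.37 (SE, edgeR adjusted p = 0.472). Rpl36a, a large subunit protein of the exit site, had 204 ± 44.6 CPM in controls and 150.5 ± 16.8 in floxed libraries (SD, n = 3 each). Its groups only just did not overlap, the lowest control being at 169.6 CPM and the highest floxed library at 169.3. Rpl10, which joins the large subunit last and is mutated in T-cell leukaemia, was at 543, 563 and 534 CPM in controls and 455, 470 and 498 in floxed libraries. Every floxed value was lower, and the log2 fold change was -0.21 ± 0.16 (SE, edgeR adjusted p = 0.7). At the other end, Rplp1 at 0.08 and Rps2 at 0.06 (log2 fold change) lay near 0, and Rpl22, an RNA-binding large subunit protein, was at 400 ± 48.1 and 406 ± 2.36 CPM (SD, n = 3 each).

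The fourth comparison, in the MxCre set titled A1b, had the widest shift of the 4. The median was 0.65, a fold of 1.57, against 0.01 over all genes, and 78 of 79 members were above 0, where 50.7% of all genes were. By edgeR 0 members were called (background 0.00709%), the smallest adjusted p being 0.0993, for Rps14. By DESeq2 29 were called, each of them higher (background 3.4%). At an unadjusted p under 0.05, 74 members were higher and 0 lower, or 93.7%, where 9.59% of all genes were higher at that level. Floxed libraries were above all controls for 40 members, or 50.6%, where 6.55% of all genes were. The 6 neutrophil and 7 erythroid markers had median log2 fold changes of 2.20 and 2.91, all above 0. The 4 stromal and endothelial markers had -1.39, all below 0. At an unadjusted p under 0.05, 2 neutrophil markers were higher and 2 stromal ones lower. edgeR called 0 markers, and DESeq2 called Kit and Cxcl12 lower. The part of these cells in the members' values was not tested.

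Large and small subunit members had medians of 0.64 and 0.66, and the stalk proteins 0.62. Rps14, whose loss is known from the 5q- form of myelodysplasia, was at 630.5, 526 and 647 CPM in controls and at 706, 1920 and 992 in floxed libraries, a log2 fold change of 1.00 ± 0.24 (SE). Rps21, a small subunit protein, was at 368, 299 and 381 CPM in controls and 378, 1212 and 512 in floxed libraries. Here floxed 1 lay among the controls, and the log2 fold change was 1.00 ± 0.31 (SE, edgeR adjusted p = 0.139). Rplp0, the stalk base, was at 1632, 1474 and 1435 CPM in controls and 1913, 2786 and 2124 in floxed libraries, with no overlap and an edgeR adjusted p of 0.101.

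Floxed 2 was the highest library in each of these. Rpl5 and Rpl11, the Mdm2-binding large subunit proteins, had log2 fold changes of 0.77 ± 0.22 and 0.76 ± 0.30 (SE). Rpl11 was at 203, 197.5 and 266 CPM in controls and 222.5, 581 and 323 in floxed libraries, so floxed 1 lay among the controls. Rps6, the target of the S6 kinases, had 226 ± 17.8 and 338 ± 104 CPM, and Rps19 had 288 ± 40.7 and 452 ± 182 (SD, n = 3 each). Rpsa, which is also a laminin-binding protein, Rps4x, Rpl3, which shapes the peptidyl transferase centre, and Rpl13a had log2 fold changes of 0.59 to 0.63 with no overlap between groups. Among the lowest values of abundant members was that of Rpl10 at 0.37.

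The size of this shift rested largely on floxed 2. Without that library the member median was 0.29 and edgeR called 0 members. At an unadjusted p under 0.05 there were 21 of 79, beside 10.9% of all genes. The direction stayed, with 78 of 79 members above 0. The remaining floxed libraries were above all controls for 40 members (50.6%), beside 10.2% of all genes. Without floxed 1, edgeR called 67 members higher and 0 lower, where it called 10.7% of all genes. With the length trend taken out the median was 0.29 with 37 members at an unadjusted p under 0.05, a level that 14.5% of all genes reached, and 0 called.

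**Figure D4:**
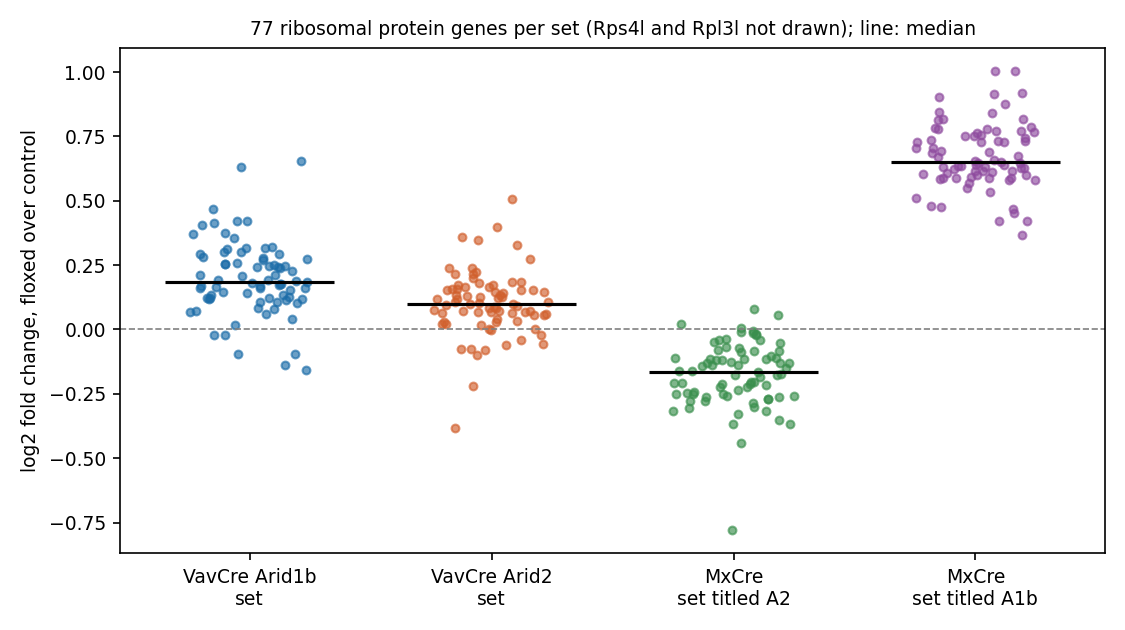
Log2 fold change of floxed over control libraries for 77 members in each set (Rps4l and Rpl3l lie outside the drawn range or near 1 CPM and are not drawn), with a line at the median. The medians are 0.19, 0.10, -0.17 and 0.65 from left to right, and in the set titled A1b all 77 points lie above 0.

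The difference between sets was tested member by member in the same edgeR model. Between the sets titled A2 and A1b, the floxed effect differed by a median of -0.85 log2 units. None of the 79 passed an adjusted p under 0.05 (background 0.192%), the smallest being 0.0917. At an unadjusted p under 0.05, 71 were lower in the set titled A2 and 1 higher, where 17.6% of all genes passed in either direction. DESeq2 called 10 (background 4.3%), among them Rps4l, which at 9.85 ran opposite to the others. Rps4l was high in floxed 2 of the set titled A2 and control 1 of the set titled A1b only. For VavCre Arid2 against the set titled A1b edgeR called 0 (background 1.5%) with 21 at an unadjusted p under 0.05 (22.6% of all genes), and DESeq2 called 2 (background 8.13%), Rps27a and Rps27l, both lower in the VavCre Arid2 set. For VavCre Arid1b against the set titled A1b edgeR called 0 (background 0.745%) with 10 at the unadjusted level (19.7% of all genes). The set titled A2 gave 0 called against VavCre Arid1b (background 7.35%) with 2 at the unadjusted level (25.2%), and 0 against VavCre Arid2 (background 0.489%) with 0 (18.6%). The VavCre sets gave 0 called against each other (background 0.0142%) and 0 at the unadjusted level (9.85%). DESeq2 called 0 members in these other 4 pairs, in the order given (background 5.72%, 13.6%, 5.08% and 1.86%).

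Other genes of the ribosome and its supply were read beside the members. In the set titled A1b, 8 tested ribosomal proteins outside the symbol rule had a median log2 fold change of 0.61. The 77 mitochondrial ribosomal proteins had one of 0.40. At an unadjusted p under 0.05, 6 and 27 of them were higher, where 9.59% of all genes were. The 23 translation factors and other oligopyrimidine genes had a median of 0.32, the 30 genes of ribosome assembly and ribosomal RNA synthesis 0.19, and the 17 growth control genes, among them Mtor, Larp1 and Myc, 0.05. In the other 3 sets these 5 lists had medians between -0.18 and 0.15. The 11 tested genes of the p53 response had medians of 0.01, -0.30, -0.27 and 0.04 in the VavCre Arid1b, VavCre Arid2, titled A2 and titled A1b sets. edgeR called 0 genes of these 6 lists in any set (background 0.00709% to 6.57%). At an unadjusted p under 0.05, 0 to 27 of a list were higher and 0 to 4 lower, where 10.6% to 24% of all genes passed. In the set titled A1b (background 3.4%), DESeq2 called higher Gnb2l1, Eef1b2, Eif3h, Btf3 and Fbl, and the mitochondrial ribosomal proteins Mrpl43, Mrpl2 and Mrps30. Those 3 of 77 mitochondrial ribosomal proteins lay near that share. DESeq2 called Akt1s1 higher in VavCre Arid2 (background 7.79%), and Wdr12 and Mrpl24 lower in VavCre Arid1b (background 12.9%). Each was 1 gene of its list, below those shares.

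Among the 3 members near 0 in most libraries, Rps4l and Rpl39l were high in single libraries. Both passed the minimum mean of 1 CPM only through those libraries, so the rule that chose the members favours this pattern. Rps4l, an intronless copy related to Rps4x that is annotated as a transcribed processed pseudogene (chr6:148354656-148355598), was at 53.2 CPM in floxed 1 of the VavCre Arid1b set (1125 counts), 25.4 in floxed 2 of the set titled A2 (689 counts) and 22.5 in control 1 of the set titled A1b (290 counts). In the other 21 libraries it was at most 2.69 CPM and it was at 0 in 4. Its fold changes between groups turn on those libraries: in the VavCre Arid1b set the log2 fold change was 3.61 ± 2.18 (SE, edgeR adjusted p = 0.334) and lay between -4.74 and 4.44 when single libraries were left out. Its parent Rps4x was at 939 CPM in the first of the 3 libraries, 632 in the second and 699 in the third, within the 568 to 1368 CPM it spanned overall.

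Rpl39l, a relative of Rpl39 best known from male germ cells, was at 34.6 CPM (592 counts) in control 3 of the set titled A2. The remaining 23 libraries held 0 to 2 counts each, and 19 of them 0. It did not pass the filter on low counts and was not tested. Rpl39 itself was at 122 CPM in that control, among 72.3 to 360 CPM overall. The genes on either side were not high there in a shared way. Of the 3 nearest on each side, Usp7 was at 301 CPM, against a median of 300 in the other libraries. Atf7ip2, the nearest on 1 side, was at 6.20 CPM, well above their median of 0.35 but within their 0 to 7.13.

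The neighbours of Rps4l were examined the same way. Ergic2 was at 80.1, 72.9 and 73.9 CPM in the 3 libraries with Rps4l and at 58.7 to 81.4 in the other 21. Tmtc1, the nearest on 1 side, was at 7.75 CPM in floxed 1 of the VavCre Arid1b set, above the 2.99 that was highest in the 21, but at 0.37 and 0.23 in the other 2. In that library Caprin2 (6.80 CPM, at most 4.91 in the 21) and 4732416N19Rik (1.37, at most 1.14) were above the 21 as well, whereas Ergic2, Ipo8 and Gm6313 were not. Rpl3l, the muscle relative of Rpl3, stayed between 0.34 and 4.36 CPM, with its highest value in floxed 3 of the set titled A1b.

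**Figure D5:**
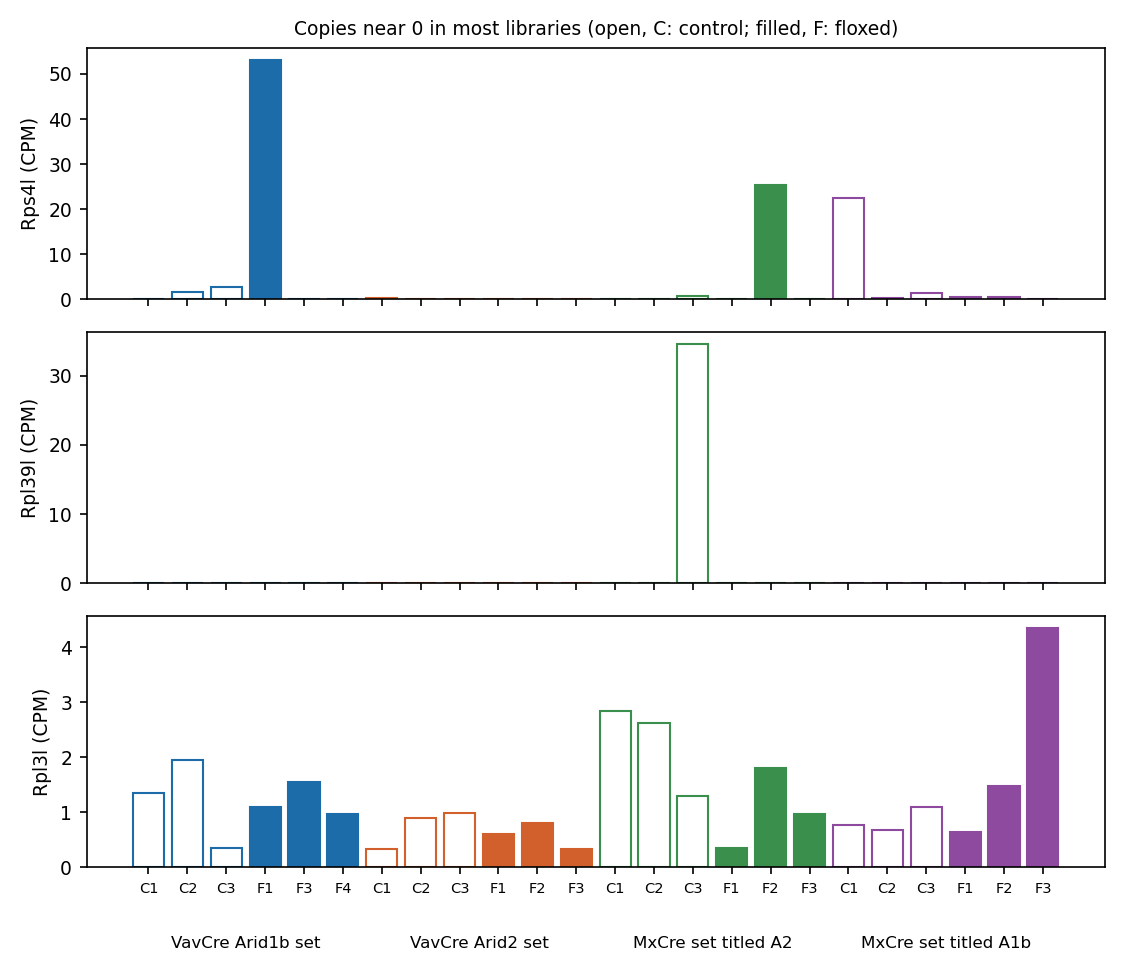
CPM of Rps4l, Rpl39l and Rpl3l in each of 24 libraries, open bars for controls (C) and filled bars for floxed libraries (F), with replicate numbers. Rps4l is high in 3 libraries of 3 sets and Rpl39l in 1, whereas Rpl3l is below 5 CPM throughout.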

How the data were processed

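The authors deposited raw counts as whole numbers for each gene symbol in 24 libraries of 8 groups. STAR and mm10 are named for alignment, per the submitters' processing notes. The counter, annotation, strand setting and treatment of reads matching several genes are not given there or in the labels. Per the labels' protocols, RNA was polyadenylated and libraries were directional. Groups follow the titles.

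Counts were fitted with edgeR 4.0.16 in R 4.3.3: filterByExpr (minimum count 10, minimum total 15) left 14099 genes and 79 members, TMM scaling, a robust quasi-likelihood model with a mean for each of 8 groups and 16 residual degrees of freedom. P-values were adjusted by Benjamini-Hochberg over all tested genes, with calls under 0.05. Except in the rule that chose the members, CPM use TMM-scaled totals. Correlations use log2 CPM with a prior count of 2. Lengths are median exon lengths of GENCODE M21 basic transcripts, found for 98.5% of genes and all 80 members. The length trend is a lowess curve (span 0.3) per library on log2 length.

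Members named are, per set, those with the 3 highest and 3 lowest fold changes and any called, the 3 highest and lowest per kb, the 4 least like the others, and members fixed by role (some are not reported here); non-members are the 8 most like the member median. The members, lists and tests were chosen with earlier results of these data known. The script was tested on simulated data. Replicates of a group differed by more than sampling noise (chi-square per degree of freedom 13.8 to 413 over 24 pairs). Alternatives were DESeq2 1.42.0, other size factors, TMM without members, no filter, a length offset, a Y term, a replicate block, the set alone, and libraries left out.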

Additional observations from a re-analysis of the deposited data

Results flagged for a closer look

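The floxed effect on the member median pointed in opposite directions in the 2 MxCre sets. Relative to the mean of their controls, all 3 floxed libraries of the set titled A2 had a lower member median, by -0.24 to -0.07 log2 units (mean -0.13), and all 3 of the set titled A1b a higher one, by 0.21 to 1.25 (mean 0.65). The control mean of the set titled A2 was raised by control 2. As deviations from each gene's mean over libraries, the medians were -0.06 in control 1, 0.23 in control 2, -0.07 in floxed 1 and -0.09 in floxed 2. Without control 2 the median log2 fold change there was -0.09, and without floxed 2 that of the set titled A1b was 0.29. The difference of -0.78 was not tested as a summary over members. The test of each member is given above. The 2 sets have separate controls, and Y-linked transcripts were present in all floxed and no control library of the set titled A2. With a term for Y-positive libraries, fitted over all 24, the median log2 fold change of the members in the set titled A2 was -0.03 in place of -0.17. That term is estimated from other sets, floxed 2 of the set titled A1b included, so it cannot separate Y status from the floxed alleles here.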

How the results depend on the processing

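By edgeR, 0 members were called in each set with other size factors, with TMM computed without members, without the filter, with a Y term, with the 6 libraries of a set alone, and without 3 libraries chosen from earlier results (control 3 of VavCre Arid1b, floxed 3 titled A2, floxed 2 titled A1b). Calls differed in these cases. With a length offset 1 was called in VavCre Arid1b (Rplp1, edgeR adjusted p = 0.0308), where 8.34% of all genes were. In the set titled A1b, DESeq2 called 29, and leaving out single libraries gave 0 to 67. For differences between sets, VavCre Arid2 minus titled A2 gave 1 (Rps27l) without the 3 libraries. VavCre Arid2 minus titled A1b gave 2 with DESeq2 (background 8.13%), 1 (Rps27l) without the 3 libraries and 0 to 5 without single libraries. Titled A2 minus titled A1b gave 10 with DESeq2 (background 4.3%), Rps4l being opposite in direction to the others. It gave 0 to 52 without single libraries, the highest being without floxed 1 titled A1b. In that setting edgeR called 10.7% of all genes within the set titled A1b. For differences with libraries left out, the share over all genes is not given, so these counts cannot be set against a background. The cause was not tested.

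Of 312 named gene values under alternatives, 297 kept direction and side of the threshold, 5 passed it and 10 turned. In VavCre Arid1b, Rps7 was 0.16 without the 3 libraries. Without single libraries, VavCre Arid1b values ran from -4.74 to 4.44 for Rps4l, -0.43 to 0.0928 for Rps29 and -0.30 to 0.18 for Rps7, and titled A2 values from -0.85 to 8.195 for Rps4l, -0.0157 to 0.19 for Rplp1 and -0.0766 to 0.25 for Rps2. With the Y term the member median was nearer 0, at 0.08 in VavCre Arid1b and -0.03 in the set titled A2. Y status matches the floxed arm in both, so the term is estimated from the other sets and cannot adjust these for sex.

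The replicate block called 0 members in each set; under it Rps29 was 0.40 in VavCre Arid1b. Same-numbered libraries had correlations of deviations from -0.22 to 0.26 and were not treated as pairs in the main model. These values cannot show whether the numbers pair the libraries.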
